A study of Mus musculus with 22 samples.

Results

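Claudins are the membrane proteins that form the strands of the tight junction, and this section describes 8 of them (Cldn1, Cldn2, Cldn3, Cldn4, Cldn6, Cldn7, Cldn8 and Cldn10) together with occludin (Ocln) and zonula occludens 1 (Tjp1). These 10 genes were chosen by name. Each is on exactly 1 of the 55415 lines of the deposited expression table, and 9 of the 10 had a mean of at least 1 TPM and could be tested. TPM is a gene's transcript abundance per unit of length, scaled to the same total in each library, so levels of different genes can be set side by side.

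The libraries came from mpkCCD, an immortalised mouse kidney line of cortical collecting duct origin. The cells were cultured on permeable supports, and dexamethasone was in the medium of every group. Unsorted wild-type (WT) cells received no dDAVP (3 libraries) or dDAVP (3 libraries). dDAVP, or desmopressin, is an agonist of the vasopressin V2 receptor. Of 4 GFP reporter clones (C1, C11, C43, C50), every one was given dDAVP, and its cells were sorted by GFP, giving 2 GFP-negative and 2 GFP-positive libraries for each. The 22 libraries thus form 10 groups. The series title gives cell-to-cell variability of aquaporin-2 (Aqp2) expression as the subject. Each reporter line is a single clone, none of the clones has a group without dDAVP, and the labels do not say what drives GFP. The labels also do not say whether libraries of a group came from separate cultures, so the p-values measure the spread between these libraries, which may be technical.

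Claudins span the membrane and meet their counterparts on the neighbouring cell, and the mixture of claudins in the strand sets which ions pass between cells. In the collecting duct, Cldn3, Cldn4, Cldn7 and Cldn8 are the typical claudins, and Cldn4 and Cldn8 are linked to the passage of chloride between cells. Cldn2 forms pores for cations and water and is typical of the proximal tubule, Cldn6 is known from embryonic and newborn epithelia, and Cldn10 belongs to the thick ascending limb and proximal tubule. Occludin is a MARVEL-domain protein of the same strands, and Tjp1 is a scaffold that ties them to actin.

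Upstream sequences are shown for 3 of the members called between the GFP fractions. Cldn6 and Cldn7, lower in GFP-positive cells, are shown because their windows hold the full cAMP response element, and Cldn2, which was higher, because its window does not. They are the 250 bases before the RefSeq start site (build GRCm38.p6), read 5′ to 3′ on the gene's strand, and capitals mark matches to the searched motifs. The Cldn6 window is chr17:23679115-23679364 (+), the Cldn7 window, that of the downstream of its start sites, is chr11:69965171-69965420 (+), and the Cldn2 window is chrX:139800558-139800807 (+).
Cldn6: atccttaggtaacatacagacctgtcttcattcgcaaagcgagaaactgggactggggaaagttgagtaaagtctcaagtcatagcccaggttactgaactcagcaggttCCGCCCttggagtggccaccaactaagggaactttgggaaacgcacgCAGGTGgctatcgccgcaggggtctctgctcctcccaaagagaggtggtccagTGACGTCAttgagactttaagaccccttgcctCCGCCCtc
Cldn7: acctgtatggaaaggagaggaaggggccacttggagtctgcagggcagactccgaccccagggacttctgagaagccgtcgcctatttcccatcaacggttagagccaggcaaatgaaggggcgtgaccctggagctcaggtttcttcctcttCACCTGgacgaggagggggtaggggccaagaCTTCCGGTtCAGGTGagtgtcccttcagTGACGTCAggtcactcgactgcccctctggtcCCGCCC
Cldn2: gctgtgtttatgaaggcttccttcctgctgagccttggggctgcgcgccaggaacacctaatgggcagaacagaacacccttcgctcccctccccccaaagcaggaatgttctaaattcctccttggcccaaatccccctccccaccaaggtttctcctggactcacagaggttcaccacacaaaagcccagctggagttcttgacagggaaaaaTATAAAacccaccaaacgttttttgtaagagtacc
Both strands were searched for the full cAMP response element, TGACGTCA, whose first bases, TGACG, were also searched and lie within it. The other motifs were TGANTCA, the AP-1 site, AACCNGTT, the Grainyhead site, CAGGTG, the E-box bound by Snail and Zeb proteins, GGGCGG, the GC box, TATAAA, the TATA box, and ACCGGAAG, the core of the ETS site. The full cAMP response element lay 40 bases before the Cldn6 start site and 38 bases before the Cldn7 start site. Of the 32851 windows of this length searched, which did not cover every chromosome, 1.55% held the element. None of the other member windows held it, among them those of Cldn3 and Cldn4, which were also lower in GFP-positive cells, and the other Cldn7 window, which held no searched motif. The E-box occurred 93 bases before the Cldn6 start site, and 97 and 57 bases before the Cldn7 start site, against 17.2% of the windows searched. Among the other members it lay 14 bases before the Cldn4 start site, and 213 and 68 bases before an Ocln start site. The other capitals are GC boxes on the opposite strand of the Cldn6 and Cldn7 windows (32.7% of the windows searched) and the ETS core in the Cldn7 window (1.72%). The Cldn2 window held a TATA box 35 bases before the start site, which 12.4% of windows held, and no other searched motif. RefSeq windows were matched for 9 of the 10 members (12 windows in all) and not for Cldn8. A match describes these letters and is no evidence that a factor binds there.

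Library quality bears on some of the values below. TPM keep no depth, so the number of reads per library is unknown. Between 17206 and 31393 genes were above 0 TPM, and the widest gap in this number splits the libraries into 10 with at most 20288 genes and 12 with at least 23174; both WT groups and both fractions of C43 and C50 have libraries on each side of it. The first GFP-negative library of C50 stood apart, with 7.87% of its TPM in ribosomal protein genes against 3.67% to 5.86% in the other 21. Aqp2 was at 64.1 to 74.9 TPM in WT cells without dDAVP and 2759 to 3025 TPM with it, and GFP was at 5.31 to 17.6 TPM in GFP-negative and 1065 to 1567 TPM in GFP-positive libraries, as labelled. Of the 8 principal cell markers, Scnn1b stayed under 1 TPM in all libraries, Aqp4 was under 1 TPM in every library of C1, C43 and C50 (0 to 0.88 TPM), and Aqp3 was at 0.15 to 4.13 TPM. All 6 intercalated cell markers stayed under 1 TPM. Summed epithelial markers were at 9479 TPM or more. Summed over each list, no library exceeded 1.77 TPM for thick ascending limb, 2.32 TPM for distal convoluted tubule, 7.4 TPM for mesenchymal, 1.57 TPM for endothelial, 12.95 TPM for leukocyte (mostly Cd68) or 17.07 TPM for proximal tubule markers (mostly Lrp2).

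The members ranged from Cldn4 and Cldn3, the most abundant, to Cldn10, which was near 0. Over the 22 libraries Cldn4 averaged 1483 ± 432 TPM and Cldn3 1447 ± 200.3 TPM (SD, n = 22), and their ranges overlapped, so these neighbours in the order did not differ beyond their spread. Cldn7 followed at 775 ± 108 TPM, but in C43 GFP-positive cells Cldn8 was above Cldn7 in both libraries and above Cldn3 and Cldn4 in the first. Cldn6 at 398 ± 207 TPM and Cldn8 at 339 ± 225 TPM overlapped as well, and their order changed between groups. The remaining junction proteins were far lower, with Ocln at 40.03 ± 9.35 TPM, Tjp1 at 13.7 ± 5.16 TPM, Cldn2 at 5.88 ± 3.12 TPM and Cldn1 at 3.73 ± 1.66 TPM. In WT cells without dDAVP Cldn1 was above Cldn2 in all 3 libraries. Cldn10 never exceeded 0.28 TPM and was left out of the tests.

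**Figure D1:**
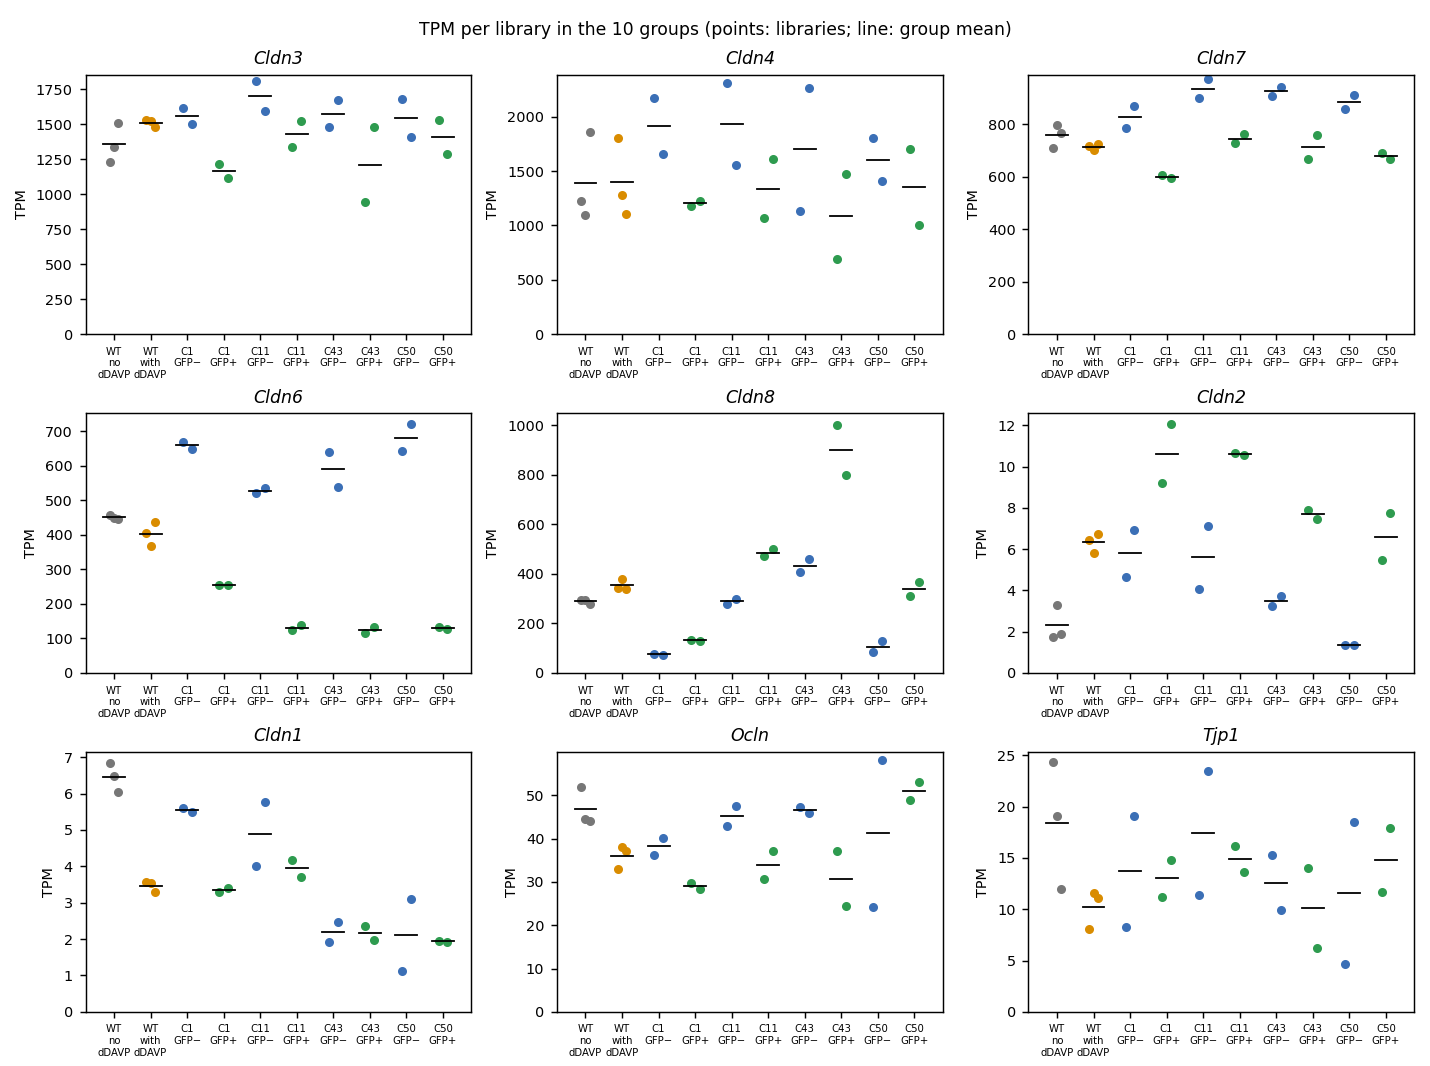
TPM (y axis, linear, from 0) of the 9 tested members in each library of the 10 groups (x axis), with 1 point per library and a line at the group mean; grey is WT without dDAVP, orange WT with dDAVP, blue GFP-negative and green GFP-positive. In the Cldn6 panel all 8 GFP-positive libraries (117 to 255 TPM) lie below all 8 GFP-negative ones (520.2 to 721 TPM), and in the Cldn8 panel the clones differ more than the fractions do.

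Most claudin transcripts thus came from 5 genes. Cldn3, Cldn4, Cldn6, Cldn7 and Cldn8 held 91.7% to 96.3% of the summed TPM of all 34 claudin genes in the table, a sum that ran from 3560 to 6147 TPM (median 4817). Of the 34, 10 had a mean of at least 1 TPM, and 9 were listed at 0 in every library. Cldn3 took 30.9% ± 2.40 and Cldn4 31.1% ± 5.27 of claudin TPM (SD, n = 22), and Cldn7 took 16.6% ± 1.52. The shares of Cldn6 and Cldn8 moved with fraction and clone. Cldn6 held 11.5% ± 2.26 of claudin TPM in the 8 GFP-negative and 4.07% ± 1.89 in the 8 GFP-positive libraries. Cldn8 held 1.42% ± 0.0774 (SD, n = 2) in C1 GFP-negative cells and 16.5% and 27.5% in the C43 GFP-positive libraries. In the first C43 GFP-positive library Cldn8 reached 27.5% of claudin TPM, more than the 25.9% of Cldn3 there.

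**Figure D2:**
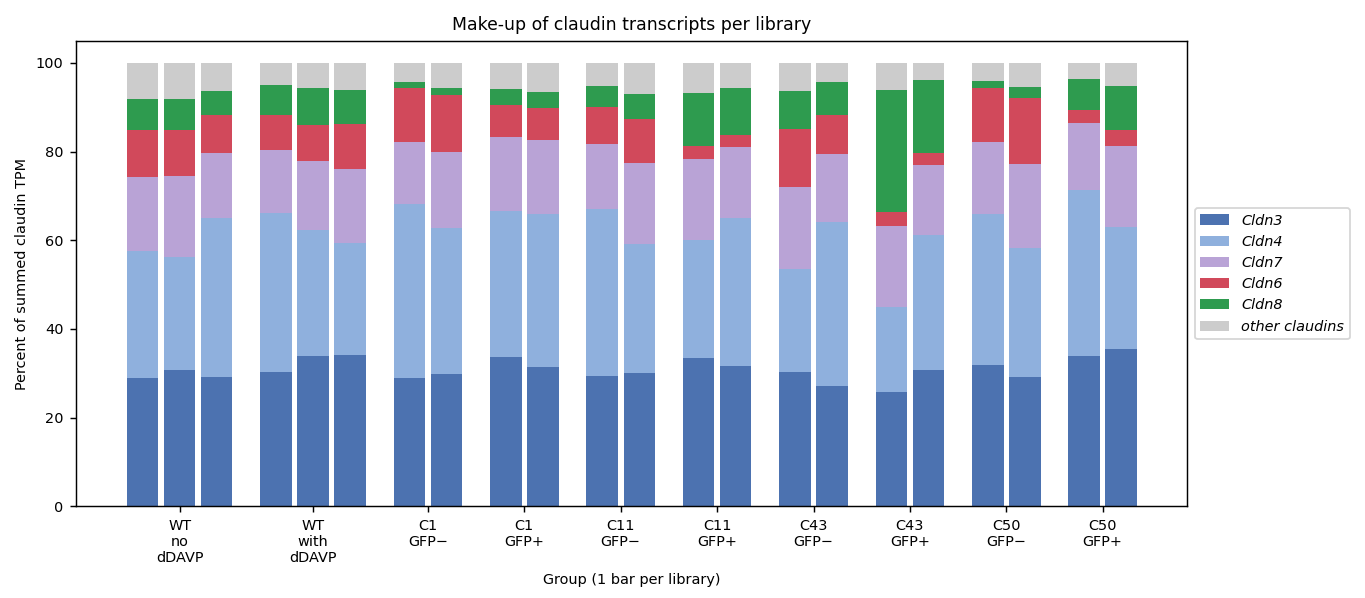
Percent of the summed claudin TPM (y axis) held by Cldn3, Cldn4, Cldn7, Cldn6, Cldn8 and all other claudins together, in 1 stacked bar per library grouped along the x axis. The Cldn6 band narrows from GFP-negative to GFP-positive cells in every clone, while the Cldn8 band widens and is broadest in C43 GFP-positive cells (16.5% and 27.5%).

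The first comparison asks which members differ between unsorted WT cells with and without dDAVP. Changes are differences of mean log2(TPM + 1), tested with limma over 13494 genes and called at a Benjamini-Hochberg adjusted p under 0.05. Cldn2 and Cldn8 were higher with dDAVP, Cldn1 was lower, and the other 6 tested members did not pass. The count of 3 of 9 stands beside 8.88% of all tested genes called (2.37% higher and 6.51% lower). The 320 higher and 878 lower genes became 451 and 306 with median-ratio scaling. The median change was -0.08 over the 9 members and -0.16 over all tested genes. In bulk RNA, a change in the number of cells that express a gene and a change in RNA per cell cannot be told apart.

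The pore-forming Cldn2 was at 1.74, 3.31 and 1.89 TPM without dDAVP and at 6.42, 5.82 and 6.72 TPM with it. All 3 treated libraries were above all untreated ones, as for 35.8% of tested genes that did not overlap in either direction. The mean rose 2.73-fold, with a log2 change of 1.17 (SE 0.21, adjusted p = 0.0215). Cldn8, a claudin of the distal nephron and collecting duct, was at 295, 296 and 279 TPM without and 343, 377 and 341 TPM with dDAVP. These groups did not overlap either, and the rise was small, 1.22-fold (log2 change 0.28, SE 0.069, adjusted p = 0.0480). Cldn1, a barrier-forming claudin, fell from 6.85, 6.47 and 6.04 TPM to 3.57, 3.55 and 3.29 TPM. Its mean was 1.86-fold lower with dDAVP (log2 change -0.74, SE 0.14, adjusted p = 0.0239), without overlap.

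Occludin and Tjp1 were also lower in every treated library than in any untreated one, but did not pass the test. Such a separation, in either direction, was seen for 35.8% of tested genes. Ocln was at 51.9, 44.5 and 44.01 TPM without and 32.9, 37.98 and 37.05 TPM with dDAVP (log2 difference -0.37, SE 0.10, adjusted p = 0.0618). Tjp1 was at 24.3, 19.1 and 11.9 TPM without and 8.10, 11.6 and 11.1 TPM with dDAVP (log2 difference -0.75, SE 0.25, adjusted p = 0.0982). Both passed when the number of genes above 0 TPM was a covariate, with limma adjusted p of 0.0226 and 0.0144. With that covariate 2694 genes were called for dDAVP (533 higher and 2161 lower), against 1198 without it. Ocln also passed when only genes with a mean of at least 5 TPM were tested (adjusted p = 0.0465). The 4 abundant claudins Cldn3, Cldn4, Cldn6 and Cldn7 did not pass either. The 95% interval of the log2 difference ran from -0.04 to 0.35 for Cldn3, from -0.54 to 0.57 for Cldn4, from -0.35 to 0.02 for Cldn6 and from -0.24 to 0.07 for Cldn7.

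The 3 calls kept their direction under every alternative but not their significance. Cldn1 lost its call in 9 of 16 alternatives, Cldn2 in 7 of 16 and Cldn8 in 12 of 17, with adjusted p up to 0.177, 0.188 and 0.250. With 1 of the 6 libraries left out, 0 to 2 members were called. Cldn8 lost its call without any 1 of them (adjusted p of 0.0570 to 0.132), Cldn1 without any but the second dDAVP library (up to 0.0907), and Cldn2 without replicate 1 or 3 of either group (up to 0.0908). Median-ratio scaling, which moved the median of all genes from -0.1568 to -0.0004, kept all 3, with log2 changes of -0.59 for Cldn1, 1.30 for Cldn2 and 0.46 for Cldn8; Cldn6 and Cldn7, at -0.17 and -0.08 as deposited, came to 0.01 and 0.09.

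The second comparison sets GFP-positive against GFP-negative cells of the 4 clones, all given dDAVP, with the clone as a covariate. Cldn6 was 2.59- to 5.25-fold lower in GFP-positive cells, Cldn7, Cldn4 and Cldn3 were moderately lower, and Cldn8 and Cldn2 were higher. Cldn1, Ocln and Tjp1 did not pass. The 6 of 9 members called (2 higher and 4 lower) stand beside 35.3% of 13113 tested genes (12.1% higher and 23.2% lower), so a call alone sets no member apart in this comparison. The 1582 higher and 3044 lower genes became 2382 and 2294 with median-ratio scaling. The median log2 difference was -0.25 over the members and -0.06 over all tested genes. The principal cell marker sum moved with the fraction, from 342 to 2718 TPM in GFP-negative libraries and from 2825 TPM upwards in GFP-positive ones. Aqp2, part of that sum, was itself at 66.5 to 1680 TPM and 2008 to 7254 TPM. Of the 7 markers tested, 5 were called higher in GFP-positive cells (Aqp2, Avpr2, Fxyd4, Hsd11b2 and Scnn1g). Aqp3 was called lower, and 1 marker was not called. The part of these markers in the claudin differences was not tested.

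Cldn6, the claudin of embryonic epithelia, showed the widest gap between the fractions. It was at 669 and 647 TPM in C1 GFP-negative cells and at 255 and 254 TPM in C1 GFP-positive cells. In C11 it went from 520.2 and 534 TPM to 123 and 138 TPM. In C43 it went from 640.01 and 538 TPM to 117 and 134 TPM. The C50 values were 641 and 721 TPM in the GFP-negative and 132 and 128 TPM in the GFP-positive fraction. The highest GFP-positive library was thus below the lowest GFP-negative one across all clones, a separation that 5.98% of tested genes showed. Unsorted WT cells lay between the fractions, at 404, 366 and 438 TPM with dDAVP and at 457, 449 and 446 TPM without it. Across clones the log2 change was -1.99 (SE 0.11, 95% interval -2.24 to -1.75, limma adjusted p = 2.124e-08). The call held in all 32 alternatives, with changes from -2.31 to -1.83 and adjusted p of at most 0.0146.

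The size of the Cldn6 difference varied with the clone. For C1, C11, C43 and C50 the fall was 2.59-, 4.03-, 4.70- and 5.25-fold, and each passed within its clone (adjusted p of 2.45e-05, 1.652e-06, 4.991e-07 and 2.197e-07). The GFP-positive level was 254 ± 0.389 TPM in C1 against 131 ± 10.49 TPM in C11, 125 ± 12.3 TPM in C43 and 130 ± 2.69 TPM in C50 (SD, n = 2 each). The interaction of fraction and clone passed for Cldn6 alone among the members (F = 16.8, adjusted p = 0.0302), beside 0.869% of all tested genes. That call was lost in 14 of 25 alternatives, over which the adjusted p ranged from 0.00254 to 0.246, and leaving out any C1 or C11 library or either C50 GFP-positive library ended it.

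Cldn6 lies next to Cldn9 in the RefSeq annotation and the 2 are close paralogs, as are the neighbours Cldn3 and Cldn4. How shared reads were divided between them was not tested. Cldn9 was at 129 and 136 TPM in C1 GFP-negative cells and 139 and 151 TPM in C1 GFP-positive cells. Its change over all clones was a log2 fall of 0.23 (SE 0.075, adjusted p = 0.0279).

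Cldn8 was the member with the widest range over the 10 groups, 12.03-fold between the lowest and highest group mean, and it was higher in GFP-positive cells of each clone. In C1 it was at 75.6 and 74.05 TPM in GFP-negative and 134 and 129.7 TPM in GFP-positive cells. In C11 it was at 280.1 and 297 TPM against 471 and 499.99 TPM. In C43 it was at 409 and 458 TPM against 1002 and 799 TPM. In C50 it was at 84.8 and 128 TPM against 312 and 366 TPM. The fractions did not overlap within any clone, as for 54.8%, 61%, 60.4% and 53.5% of tested genes in C1, C11, C43 and C50. Across clones they did, since GFP-negative C43 cells held more Cldn8 than GFP-positive C1 cells. The log2 change over all clones was 1.07 (SE 0.13, 95% interval 0.80 to 1.34, limma adjusted p = 1.563e-05). By clone, in the same order, the rise was 1.76-, 1.68-, 2.08- and 3.19-fold, with adjusted p of 0.0147, 0.0215, 0.00189 and 5.389e-05. The calls in C1 and C11 were lost without any 1 library of that clone (adjusted p up to 0.113 and 0.148). These folds were not shown to differ between clones (interaction F = 6.36, adjusted p = 0.215), though the interaction passed without the second GFP-negative library of C50 (adjusted p = 0.00224).

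**Figure D3:**
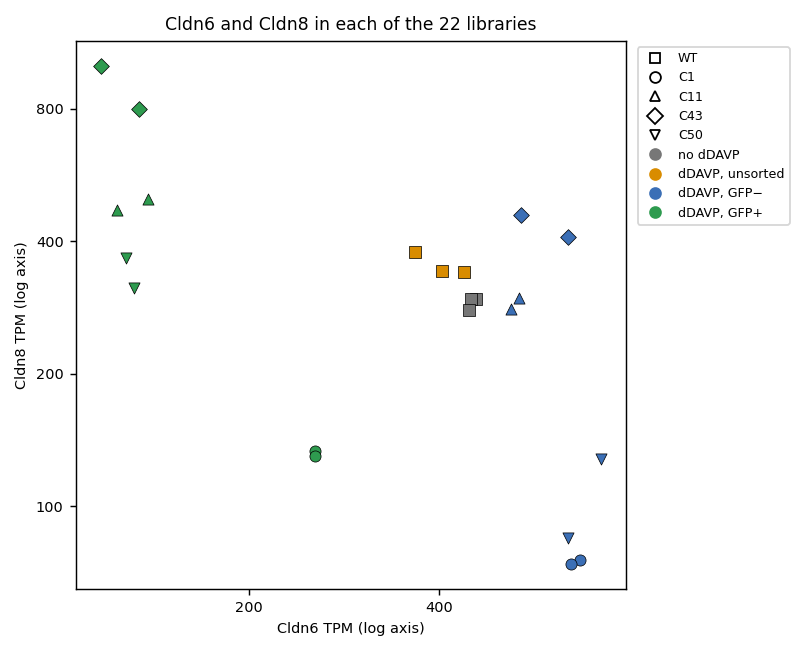
Cldn6 TPM (x axis, log scale) against Cldn8 TPM (y axis, log scale) in the 22 libraries; the marker shape gives the clone or WT, and the colour the dDAVP and GFP group. Within every clone the green GFP-positive points lie to the left of and above the blue GFP-negative ones, from 117 to 255 TPM of Cldn6 against 520.2 to 721 TPM, while clones are offset from each other in Cldn8.

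Cldn8 differed more between clones than between fractions. The order of the clones was the same in both fractions, from C43 (433 ± 34.9 TPM GFP-negative and 900.2 ± 143.7 TPM GFP-positive) through C11 (289 ± 12.02 and 485 ± 20.7 TPM) and C50 (106 ± 30.4 and 339 ± 37.6 TPM) to C1 (74.8 ± 1.12 and 132 ± 2.77 TPM, SD, n = 2 each). From the lowest clone to the highest the mean differed 5.79-fold among GFP-negative and 6.84-fold among GFP-positive cells. The clone term passed for Cldn8 (F = 84.03, adjusted p = 3.41e-07), Cldn2 (adjusted p = 0.00427), Cldn1 (adjusted p = 0.00526), Cldn6 (adjusted p = 0.0244) and Cldn7 (adjusted p = 0.0365). It did not pass for Cldn3, Cldn4, Ocln or Tjp1. These 5 of 9 stand beside 28% of tested genes, and with 4 clones they describe those clones only. Cldn7 lost this call in 12 of 25 alternatives (adjusted p up to 0.318), 8 of which left out 1 library of C1, C11 or C43, and Cldn6 lost it without either C1 GFP-positive library (adjusted p up to 0.107); without the first GFP-negative library of C50 Ocln passed too (adjusted p = 0.00262).

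Cldn7, which is typical of the basolateral membrane of collecting duct cells, was lower in GFP-positive cells by a small amount. It was at 785 and 871 TPM in C1 GFP-negative and 606 and 595 TPM in C1 GFP-positive cells. In C11 the values were 901 and 971 TPM against 729 and 762 TPM. In C43 they were 907 and 944 TPM against 666 and 758 TPM. The C50 libraries were at 857 and 910.01 TPM against 689 and 668 TPM. No GFP-positive library reached the lowest GFP-negative one, 785 TPM, and 5.98% of tested genes showed a separation of the fractions in either direction. The mean was 1.26- to 1.38-fold lower per clone, with a log2 change of -0.39 over all clones (SE 0.045, 95% interval -0.48 to -0.29, limma adjusted p = 1.463e-05). Within clones Cldn7 passed in all 4 (adjusted p of 0.00752, 0.0400, 0.0119 and 0.00803 in that order). The calls in C1, C11, C43 and C50 were lost in 5, 14, 4 and 2 of 26 alternatives (adjusted p up to 0.114, 0.553, 0.376 and 0.215). Median-ratio scaling ended those in C1, C11 and C43, and quantile normalization those in C1 and C50. Leaving out 1 library ended the C1 call for all C1 libraries but the first GFP-negative one, the C43 call for all C43 libraries but the second GFP-positive one, and the C50 call for its second GFP-positive one. The C11 call was ended by the loss of any 1 library of C11, C1 GFP-positive, C43 GFP-negative or C50 GFP-positive cells.

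The neighbouring genes Cldn3 and Cldn4 were lower in GFP-positive cells with less margin. Cldn3 averaged 1596 ± 130.1 TPM in GFP-negative and 1305 ± 209 TPM in GFP-positive libraries (SD, n = 8 each). Its fractions overlapped in C50 and were separate in C1, C11 and C43, as for 54.8%, 61% and 60.4% of tested genes. Its log2 change was -0.30 (SE 0.089, adjusted p = 0.0151). Cldn4 averaged 1788 ± 429 TPM in GFP-negative and 1245 ± 336 TPM in GFP-positive libraries (SD, n = 8 each), with overlap in C11, C43 and C50. Its log2 change was -0.53 (SE 0.19, adjusted p = 0.0371), and its replicates were far apart, at 1136 and 2266 TPM in C43 GFP-negative cells. Neither gene passed within a single clone. Both calls were lost with median-ratio scaling (adjusted p of 0.158 and 0.101). Cldn3 was lost in 6 of 32 alternatives (adjusted p up to 0.268), among them leaving out clone C1 or C11. Cldn4 was lost in 13 of 32, 8 of them the loss of a single library (adjusted p up to 0.0812). Those were the first libraries of C1 and C11 in both fractions and of C43 GFP-positive cells, and the second ones of C1 GFP-positive, C43 GFP-negative and C50 GFP-positive cells.

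Cldn2 remained a minor claudin but was higher in the GFP-positive fraction of each clone. It was at 4.67 and 6.91 TPM against 9.18 and 12.04 TPM in C1, with the GFP-negative values first. In C11 it was at 4.07 and 7.14 TPM against 10.7 and 10.6 TPM. In C43 it was at 3.25 and 3.73 TPM against 7.89 and 7.47 TPM. In C50 both GFP-negative libraries were at 1.36 TPM, against 5.47 and 7.73 TPM. The fractions were separate within every clone, as for 54.8%, 61%, 60.4% and 53.5% of tested genes in C1, C11, C43 and C50. Across clones they overlapped. The log2 change was 1.07 (SE 0.15, 95% interval 0.74 to 1.39, limma adjusted p = 7.784e-05). Within clones it passed in C43 and C50 (adjusted p of 0.0284 and 0.000848) and not in C1 and C11 (adjusted p of 0.104 and 0.0699), and the call in C43 was lost without any 1 of its libraries (adjusted p up to 0.164). Within C11 Cldn2 passed in 5 of 26 alternatives, among them median-ratio scaling and quantile normalization. Within C1 it passed in 1 of 26, quantile normalization. The interaction did not pass. Of the 8 proximal tubule markers only Lrp2 could be tested, and it was higher in GFP-positive cells too (0.94 to 12.9 TPM against 3.38 to 15.9 TPM, log2 change 0.56, adjusted p = 0.00525). Its part in the Cldn2 difference was not tested.

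**Figure D4:**
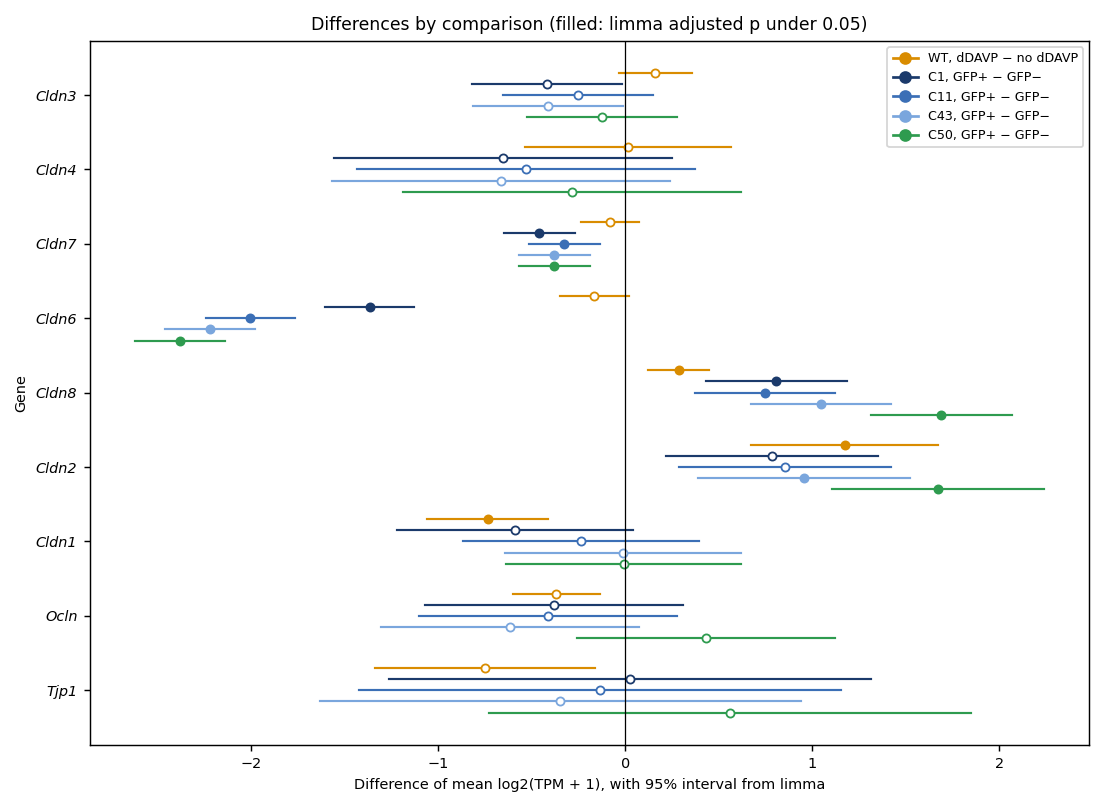
Difference of mean log2(TPM + 1) (x axis) for the 9 tested members (y axis), dDAVP minus no dDAVP in WT cells and GFP-positive minus GFP-negative in each clone, with 95% intervals from limma; filled points have an adjusted p under 0.05. Cldn6 stands far to the left in the clones (-1.37 to -2.38) and near 0 in WT cells (-0.17), and Cldn8 and Cldn2 lie to the right of 0 in all 5 comparisons.

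In the fraction comparison Cldn6 passed under all 32 alternatives, and Cldn7, Cldn8 and Cldn2 under all but 1. The exception was the set of libraries with at most 20288 genes above 0 TPM, where the adjusted p was 0.124, 0.0649 and 0.136 and Cldn6 alone remained called. In the libraries with at least 23174 genes the log2 changes were -2.31 for Cldn6, -0.41 for Cldn7, 1.12 for Cldn8 and 1.23 for Cldn2, all called. Counted within single clones, 3, 3, 4 and 4 of the 9 members passed in C1, C11, C43 and C50, beside 7.22%, 7.94%, 16.3% and 26.6% of tested genes.

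Cldn1 did not pass between the fractions. It was at 5.6 and 5.5 TPM in C1 GFP-negative and 3.30 and 3.40 TPM in C1 GFP-positive cells, and at or under 3.11 TPM in all C43 and C50 libraries. Its log2 difference was -0.21 (SE 0.14, adjusted p = 0.284), and leaving out the first C50 GFP-negative library gave -0.32 with an adjusted p of 0.0359. Ocln was lower in GFP-positive cells of C1, C11 and C43 without overlap. In these clones 54.8%, 61% and 60.4% of tested genes did not overlap in either direction. In C43, for example, Ocln was at 47.3 and 45.96 TPM against 37.1 and 24.4 TPM. In C50 its GFP-negative libraries were at 24.1 and 58.3 TPM and its GFP-positive ones at 49.01 and 53.1 TPM. The log2 difference of Ocln was -0.25 (SE 0.18, adjusted p = 0.311) with all libraries and -0.42 (adjusted p = 0.00137) without the first C50 GFP-negative library, so 1 library decides whether it passed. It also passed without clone C50 (-0.47, adjusted p = 0.00262).

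Tjp1, the scaffold, was no higher or lower in a fraction beyond its spread. It was at 13.8 ± 6.33 TPM in the 8 GFP-negative and 13.2 ± 3.56 TPM in the 8 GFP-positive libraries (SD), with a log2 difference of 0.02 whose 95% interval ran from -0.56 to 0.61 (adjusted p = 0.958). Its 2 C50 GFP-negative libraries were 3.97-fold apart, at 4.66 and 18.5 TPM. The sign of its difference turned without the first of them (-0.19).

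The other genes of tight and adherens junctions gave a mixed picture. In WT cells 60 of the 90 in the table were tested, and dDAVP was followed by 0 higher and 3 lower calls, no larger a share than the 2.37% higher and 6.51% lower over all genes. Those were Cldn9 (log2 change -0.56, SE 0.064, adjusted p = 0.00442), the adhesion receptor Cxadr (-0.53, SE 0.079, adjusted p = 0.0109) and the tricellular junction protein Marveld2 (-0.43, SE 0.0999, adjusted p = 0.0420). The median over the 60 was -0.25, beside -0.16 over all genes. Cldn9 was at 216, 229.6 and 213 TPM without dDAVP and 151, 146 and 148 TPM with it. The groups did not overlap, as for 35.8% of all tested genes. None of the 12 scaffolds, 10 polarity proteins, 18 regulators or 11 adherens junction genes tested passed. The count of 3 moved between 0 and 19 with the settings tried.

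Between the GFP fractions, 8 of 59 tested junction genes were higher and 14 lower, with a median log2 difference of 0.06. Over all tested genes 12.1% were higher and 23.2% lower, so these counts are near the background and the genes below are named as single genes only. With median-ratio scaling the split was 21 higher and 12 lower. Within clones, C50 had 14 higher and 4 lower of the 59 (median 0.36), against 0 and 2 in C1, 1 and 4 in C11, and 2 and 7 in C43. Of all tested genes 26.6% were called in C50 (median 0.09), and 7.22%, 7.94% and 16.3% in C1, C11 and C43. Without the first GFP-negative library of C50, the one that stood apart, the C50 median was 0.05 over the 59, beside -0.09 over all genes. Without the second it was 0.65, beside 0.27 over all genes. Without the first or second GFP-positive library of C50 the median over the 59 was 0.38 each time, beside 0.08 over all genes. The 3 remaining claudins above 1 TPM were called lower in GFP-positive cells over all clones, although Cldn9 was higher in that fraction of C1. Cldn12 was at 22.5 to 64.8 TPM in GFP-negative and 13.7 to 35.2 TPM in GFP-positive libraries (log2 change -0.84, adjusted p = 0.00535), and Cldn23 at 59.5 to 85.8 TPM and 34.6 to 58.3 TPM (-0.56, adjusted p = 0.000753). Among the regulators, Epcam, an adhesion protein that binds and stabilises Cldn7, fell by 0.70 on the log2 scale (SE 0.051, adjusted p = 1.669e-07). Arhgef2 fell by 0.64, and Ovol2, an epithelial transcription factor, fell by 0.46. The polarity protein Llgl1, the cadherin Cdh3 and the scaffold Amotl1 fell by 0.53, 0.51 and 0.51.

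The 8 higher calls were spread over several roles. The scaffold Tjp3, a relative of Tjp1, rose from 203 ± 60.4 to 298 ± 75.2 TPM (SD, n = 8 each, log2 change 0.58, adjusted p = 0.00571). The junctional adhesion molecule F11r rose by 0.44 (SE 0.065, adjusted p = 0.000105), and the kidney cadherin Cdh16 by 0.37 (adjusted p = 0.000257). The transcription factors Tfap2a (0.41) and Grhl1 (0.39), the catenin Ctnna1 (0.36) and the polarity kinase Prkcz (0.20) also rose. By role, as a description of small lists, 1 of 12 scaffolds was higher and 2 lower, 1 of 9 polarity proteins higher and 2 lower, 3 of 18 regulators higher and 5 lower, and 2 of 11 adherens junction genes higher and 1 lower.

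Over the 10 group means of log2(TPM + 1), Cldn3 and Cldn4 followed each other (Pearson r = 0.888), whereas Cldn6 and Cldn8 ran opposite (r = -0.61). These correlations describe 10 points from 1 cell line that share clones and a treatment. Genes with the pattern nearest to each of the 3 most variable members were sought among 9630 genes. For Cldn6 they were Lhfp (r = 0.988), Gadd45a (r = 0.988) and Dennd5a (r = 0.987). For Cldn2 they were Eya2 (r = 0.987), Cdk18 (r = 0.987) and Sh3d21 (r = 0.978). For Cldn8 they were Ttc1 (r = 0.979), Pcgf6 (r = 0.970) and Smarcd2 (r = 0.952), of which Ttc1 dropped to 0.778 after median-ratio scaling.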

How the data were processed

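The data are 22 RNA-seq libraries of mpkCCD cells. A SMART-Seq HT kit gave the cDNA and Nextera XT the paired-end libraries, per the labels' protocols. STAR and RSEM are named in the submitters' processing notes. The genome build and annotation were not given in the sources used here. The authors deposited TPM per gene and library, their group means and ratios of those means (folds). Only the TPM per library were analysed. The deposited group means differed from the mean of their libraries by at most 0.005 TPM. A further column (1 in number) of per-line maxima was not used. Lines sharing 1 of 79 symbols (980 lines, no member among them) were summed, which left 54514 entries.

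Groups and replicate numbers came from the sample labels. dDAVP doses and durations are listed there without saying which library had which, and were not analysed here. Linear models were fitted with limma 3.58.1 (statmod 1.5.0, R 4.3.3) to log2(TPM + 1), a pseudocount of 1 that understates changes of low genes, with a mean-variance trend, keeping genes whose TPM averaged at least 1 in the libraries of that fit. Tests were two-sided, and p-values were Benjamini-Hochberg adjusted over all genes tested. The WT comparison used 6 libraries, and the GFP comparison 16, with the clone as covariate or with a mean per clone and fraction. F-tests gave the interaction and the clone term. The scripts were checked on simulated data. Without depth, no count model, interval from counts or detection limit was used, and replicate spread is the measure of precision. Values are means ± SD.

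The members, the junction and marker lists and the rules were chosen with earlier results of these data known. Named besides the members were, per comparison, up to 8 higher and 8 lower called junction genes with a mean of at least 5 TPM, listed claudins with a mean of at least 1 TPM, and the 3 genes most like each member with a mean of at least 5 TPM whose group means had an SD of at least 0.5. Alternatives were a pseudocount of 0.1, filters at a mean of 5 TPM or at any nonzero TPM, scaling by median ratios, quantile normalization, no trend, robust moderation, the number of genes above 0 TPM as covariate or as a split, replicate blocks, 1 fit of all libraries, clone means, and leaving out each library or clone. Sequences are from RefSeq. Of the junction genes that this rule names, 1 is not reported here.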

Additional observations from a re-analysis of the deposited data

Results flagged for a closer look

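The GFP-fraction difference of Cldn6 varied between the clones by a test of the difference itself (limma interaction of fraction and clone, adjusted p = 0.0302). The call was lost in 14 of 25 alternatives (adjusted p up to 0.246), among them the replicate block and leaving out any library of C1 or C11 or either GFP-positive library of C50. For C1, C11, C43 and C50 the log2 change of Cldn6 was -1.37, -2.01, -2.22 and -2.38 (SE 0.11 for each). In GFP-negative cells Cldn6 was at 658 ± 15.2, 527 ± 9.999, 589 ± 72.2 and 681 ± 56.6 TPM (SD, n = 2 each) in the same order of clones. In GFP-positive cells C1 was the highest, at 254 ± 0.389 TPM, 2.03-fold above the lowest clone. No test for an outlying library was made in groups this small.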

How the results depend on the processing

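Of 1818 member results under an alternative setting, 1642 kept their direction and side of the threshold, 118 lost the threshold, 25 gained it and 33 changed sign. The cause was not tested for any of them. Of 9 tested members, 3 were called for dDAVP in WT cells, against 0 with any TPM above 0, 1 with quantile normalization, 5 with genes detected as covariate and 0 in the libraries with more genes detected (5, 7, 6 and 5 at an unadjusted limma p under 0.05), and 0 to 2 without 1 library. Where fewer genes were detected, WT cells had 1 library per group, and the untested log2 differences were 1.36 for Cldn2, 0.30 for Cldn8 and -0.62 for Cldn1.

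The 3 other junction genes called for dDAVP became 5 with a pseudocount of 0.1, 9 at a mean of 5 TPM, 5 with robust moderation, 19 with the covariate, 0 in libraries with more genes detected (15 at an unadjusted p under 0.05) and 1 to 13 without 1 library. The 1198 genes called for dDAVP (320 higher, 878 lower) became 442 with any TPM above 0, 757 with median-ratio scaling (451 higher, 306 lower), 691 without trend, 2694 with the covariate, 789 in the fit of all 22 libraries, 101 in libraries with more genes detected and 314 to 2038 without 1 library; quantile normalization gave 438 higher and 372 lower.

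For the GFP fraction, 6 members became 1 in libraries with fewer genes detected and 5 to 8 without 1 library. The 22 other junction genes became 14 with any TPM above 0, 34 with quantile normalization, 9 with clone means, 12 without clone C43, 1 in libraries with fewer genes detected and 17 to 30 without 1 library. The 4626 genes called became 2406 with clone means, 250 in libraries with fewer genes detected and 4170 to 6043 without 1 library; the 1582 higher and 3044 lower became 2382 and 2294 with median-ratio scaling. Within C11, 3 members became 1 with any TPM above 0. Without 1 library the counts within C1, C11, C43 and C50 were 1 to 3, 1 to 4, 2 to 5 and 3 to 6. The interaction call of 1 member became 0 with any TPM above 0, quantile normalization and no trend (2 at an unadjusted p under 0.05 each), and 0 to 3 without 1 library. The clone term, 5 members, became 3 with any TPM above 0 and 3 to 6 without 1 library. A library left alone in its group was assumed to vary like the other groups.

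Replicate numbers were not used as pairs in the main fits. The deviations of same-numbered libraries had correlations of -0.212, -0.0306 and -0.102 in WT cells. By clone, in the order C1 to C50, they were 0.0537, 0.00784, 0.211 and 0.0912. With 2 libraries per clone and fraction, these values cannot show whether libraries were paired. With a replicate block, dDAVP calls fell to 0 of 9 members (5 at an unadjusted limma p under 0.05), 0 junction genes (14) and 122 genes, the fraction still called 6 members, and the interaction called 0 (2).

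Signs changed only for values that were not called. For dDAVP, Cldn6 came to 0.0063 and Cldn7 to 0.0902 with median-ratio scaling, Cldn4 to -0.15 with quantile normalization and to between -0.19 and 0.24 without 1 library. For the fraction, Tjp1 came to -0.15 without clone C50, -0.0550 in libraries with more genes detected and between -0.19 and 0.15 without 1 library. Within C1, Tjp1 was -0.26 with the covariate and -0.53 to 0.58 without 1 library. Within C11, Tjp1 was 0.0088 with median-ratio scaling, 0.0479 with quantile normalization, 0.0485 with the covariate, and -0.63 to 0.35 without 1 library. Within C43, Cldn1 was 0.11 with median-ratio scaling, 0.20 with quantile normalization and -0.14 to 0.11 without 1 library, and Tjp1 -0.88 to 0.18. Within C50, Cldn1 was 0.0379 with a pseudocount of 0.1, 0.0051 with the covariate and -0.48 to 0.47 without 1 library, where Cldn3 ran from -0.25 to 0.0013, Cldn4 from -0.66 to 0.0932, Ocln from -0.19 to 1.05 and Tjp1 from -0.33 to 1.45. The likeness of Cldn8 and Ttc1 was 0.778 after median-ratio scaling.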
